A study of Mus musculus with 24 samples.

Results

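The hippocampus of APP/PS1 mice given urolithin A was compared with that of untreated wild-type mice at the end of the treatment period, on 8 of the 24 arrays of the study. The treated group holds the 4 arrays titled APP-PS1_UA and the reference group the 4 arrays titled WT_CTR. Both were chosen by title alone, with no use of measured values. Because the groups differ in genotype and in treatment at once, the comparison asks which differences between transgenic and wild-type hippocampus were still measured under the compound. The untreated transgenic group, 3 arrays titled APP-PS1_CTR, is given beside the main results. It was measured against the same 4 wild-type arrays, so the pair of comparisons is not independent.

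All 8 arrays came from male mice, and B6.Cg-Tg(APPswe,PSEN1dE9)85Dbo/J is the labelled strain. The treated and untreated transgenic animals are labelled as carrying both transgenes (+ APP + PSEN) and the wild-type animals as carrying neither (- APP - PSEN). WT_CTR and APP-PS1_CTR are labelled water, and APP-PS1_UA is labelled with 5 months of urolithin A (Urolithin A_5m). Gavage ran from 2 to 7 months of age. The treatment protocol states a dose of 200 mg/kg/day and the design text one of 20 mg/kg/day, and the conflict could not be settled from the sources used here. Age is labelled 8 months in all 3 groups, whereas the protocol places tissue collection at the end of gavage. The washout groups used beside them (WT_WASHOUT, APP-PS1_WASHOUT and APP-PS1_UA-WASHOUT) are recorded at 9 months with 1 month of washout. For WT_WASHOUT and APP-PS1_WASHOUT the recorded dose is 0. No wild-type group received urolithin A, so an effect of the compound that needs no transgene cannot be told apart from one that does. The labels number the replicates of a group but do not say that each came from a separate animal, so the p-values measure the spread between these samples.

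In this line a chimeric mouse/human APP with the Swedish mutations and a second, human transgene are expressed in neurons from mouse prion protein promoter elements. Amyloid-β accumulates and plaques form with age. Microglia that gather at plaques switch on a programme of receptors, chemokines and lysosomal genes that depends on the receptor Trem2 and its adaptor Tyrobp, while astrocytes around plaques become reactive and raise Gfap and complement. Urolithin A arises when intestinal bacteria break down plant ellagitannins, and is best known as an inducer of mitophagy, the removal of damaged mitochondria by autophagy.

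Because the genes that stood above wild type in treated mice were largely microglial, and because Prnp carries the promoter from which the line's transgenes were built, the 200 bases before the transcription start of 5 of these genes are shown. They were read from RefSeq on GRCm38.p6, 5′ to 3′ on the gene's own strand. Capitals mark matches to GAGGAA, the core recognised by the myeloid factor PU.1, or to TGANTCA, on either strand. TGANTCA, with N any base, is a loose form of the element bound by AP-1. That element has mostly C or G at the N, and the Trem2 match has A. On the other strand GAGGAA reads TTCCTC, and TGANTCA reads the same on both.
Cst7 (GRCm38.p6, chr2:150570215-150570414, plus strand): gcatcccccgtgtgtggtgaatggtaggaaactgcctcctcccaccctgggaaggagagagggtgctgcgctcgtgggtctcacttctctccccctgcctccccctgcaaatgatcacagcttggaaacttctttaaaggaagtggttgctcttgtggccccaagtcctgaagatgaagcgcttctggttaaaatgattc
Itgax (GRCm38.p6, chr7:128129350-128129549, plus strand): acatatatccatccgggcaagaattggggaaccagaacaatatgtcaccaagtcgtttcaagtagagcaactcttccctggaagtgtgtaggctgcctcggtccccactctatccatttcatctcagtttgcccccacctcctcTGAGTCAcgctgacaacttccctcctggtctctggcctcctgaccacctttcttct
Ccl3 (GRCm38.p6, chr11:83649379-83649578, minus strand): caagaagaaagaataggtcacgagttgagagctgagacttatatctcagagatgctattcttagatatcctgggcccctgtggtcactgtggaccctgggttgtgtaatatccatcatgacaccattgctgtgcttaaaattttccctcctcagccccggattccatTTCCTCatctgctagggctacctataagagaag
Trem2 (GRCm38.p6, chr17:48346201-48346400, plus strand): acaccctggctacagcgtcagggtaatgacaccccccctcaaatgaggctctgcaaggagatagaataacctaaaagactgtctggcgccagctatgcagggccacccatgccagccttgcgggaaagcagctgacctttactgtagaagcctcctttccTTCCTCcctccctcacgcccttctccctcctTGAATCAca
Prnp (GRCm38.p6, chr2:131909728-131909927, plus strand): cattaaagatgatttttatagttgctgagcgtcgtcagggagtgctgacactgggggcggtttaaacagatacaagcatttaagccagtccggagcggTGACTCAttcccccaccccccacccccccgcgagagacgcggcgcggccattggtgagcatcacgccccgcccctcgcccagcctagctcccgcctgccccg

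RefSeq promoters were matched for 10 of the 15 named genes that differed between treated and wild-type mice, and none was used for Ccl4, Lilrb4a, Tyrobp, C4b and Wdfy1. Within the 250 bases before the start, GAGGAA was found in 5 of the 10 (Ccl3, Bcl2a1c, Slamf9, Trem2 and Osmr) and in 23.1% of 27025 promoters. The letters TGANTCA were found in Itgax, Prnp and Trem2, 3 of the 10, and in 6.87% of all promoters. The 2 motifs did not share bases in the sequences shown. These matches describe the letters only.

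On the microarray, levels are given as log2 of the processed signal minus the 75th percentile of the same array, so that 0 is the signal of a fairly bright probe and a difference of 1 is a doubling. The 75th percentile lay between 1285.4 and 2291.6 intensity units over the 24 arrays, 63.7% to 76.9% of spots were well above background, and no probe was saturated. Arrays correlated at 0.981 to 0.987 within the treated group and at 0.981 to 0.989 within wild type, across all features. All 4 WT_CTR arrays lay on slide 1. APP-PS1_UA 1 lay on the same slide, whereas APP-PS1_UA 2, 3 and 4 lay on slide 2. Differences of the called genes were therefore also taken within slide 1 and, on slide 2, against the older WT_WASHOUT arrays of that slide. Array row differed in both. On slide 1, APP-PS1_UA 1 lay on row 2 and WT_CTR on row 1. On slide 2, APP-PS1_UA 2 to 4 and WT_WASHOUT 1 lay on row 1 and WT_WASHOUT 2 to 5 on row 2. Row is thus aligned with group within slide 1 and largely so on slide 2. The probes for all 22 hippocampal subfield markers were well above background on all 8 arrays. Clec7a was not measured under its symbol.

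Of 35259 genes and unnamed probes tested, 17 differed between treated APP/PS1 and wild-type hippocampus at an adjusted p under 0.05 (limma on all 24 arrays, Benjamini-Hochberg adjustment), which is 0.0482% of those tested. Higher in treated mice were 15 of them (0.0425%) and lower were 2 (0.00567%). The 17 comprised 15 named genes and 2 unnamed probes. On every one of the 17 the 4 treated arrays did not overlap the 4 wild-type arrays. Over all features, every treated array lay above every wild-type array for 1.49% and below for 1.13%. The median difference over all features was -0.03, and 2143 features (6.08%) had an unadjusted p under 0.05. The untreated transgenic arrays differed from the same wild-type arrays at 55 features (0.156%), 54 of them higher (0.153%) and 1 lower (0.00284%). On slide 1 the WT_CTR arrays lay on array row 1 and the APP-PS1_CTR arrays on row 2. From these arrays alone the difference cannot be told apart from one of row. A fit with row takes the row difference from the other groups that lie on both rows. With array row as a fixed block the 55 became 8 and the 17 became 16, so the 2 counts are not compared. The count of 17 depended on single arrays: it was 7 without APP-PS1_UA 3, 9 without APP-PS1_UA 1, 9 without WT_CTR 2 and 8 without WT_CTR 3. Within slide 1, where APP-PS1_UA 1 is the only treated array and is assumed to vary like the other groups, 6 features were called. Fitting only these 8 arrays gave 4, and slide with array row as fixed blocks gave 5.

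Among the 17 the largest difference lay in Cst7, which encodes cystatin F, an inhibitor of lysosomal cysteine proteases that microglia switch on at plaques. Its levels were 0.00, -0.81, 0.84 and -0.44 on APP-PS1_UA 1 to 4, and -5.3, -6.32, -6.42 and -5.27 on WT_CTR 1 to 4. The lowest treated array thus stood far above the highest wild-type array, and the probe was well above background on all 8. The difference was 5.73 ± 0.34 (SE), or 52.9-fold, with a limma adjusted p of 4.53e-09. Untreated APP/PS1 arrays read 0.09, -0.09 and 0.28, inside the span of the treated arrays. Within slide 1 the difference was 5.83 and on slide 2 against WT_WASHOUT 5.63.

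Itgax, the integrin αX chain (CD11c) of plaque-associated microglia and dendritic cells, read -2.47, -3.06, -1.75 and -2.93 on the treated arrays and -5.12, -5.62, -5.27 and -5.03 on the wild-type arrays. It was 2.71 ± 0.29 higher (6.52-fold, limma adjusted p = 7.31e-05). Treated arrays spread over more than 1 log2 unit, more than the 3 untreated transgenic arrays, which lay between -2.35 and -2.13. An unnamed probe, A_51_P246653, was 3.04 ± 0.31 higher (8.22-fold, adjusted p = 4.75e-05), with treated arrays at -0.69, -1.60, -0.07 and -1.29 and wild-type arrays between -4.19 and -3.83. The scanner files name its transcript NM_020008, which matched 0 entries of the RefSeq table used here, so it is given without a symbol. Within slide 1 and against WT_WASHOUT on slide 2 the differences were 2.79 and 3.09 for Itgax and 3.27 and 3.13 for this probe.

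**Figure D1:**
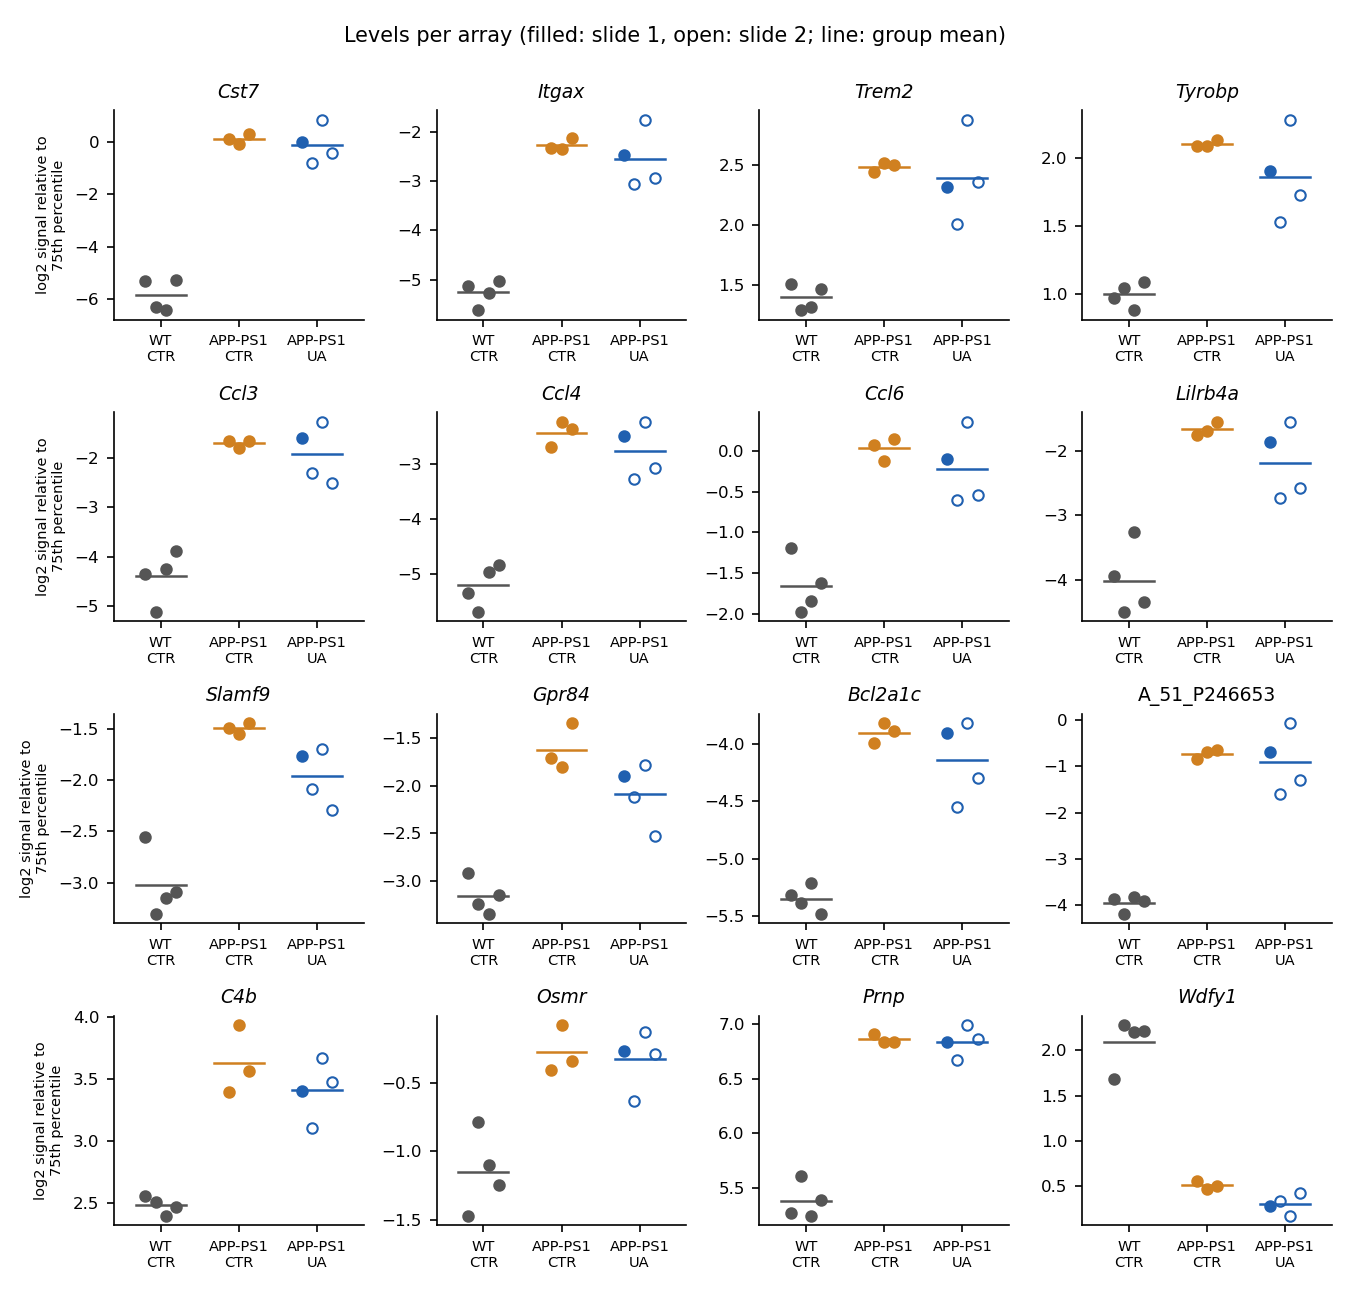
Levels of the 15 higher features and of Wdfy1, in log2 signal relative to each array's 75th percentile on the vertical axis. Each point is an array, filled on slide 1 and open on slide 2, and each line is a group mean. Treated arrays stand apart from wild type in all panels, APP-PS1_UA 3 is the highest treated array in each panel but Wdfy1, and in Cst7 wild type lies between -6.42 and -5.27.

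Among receptors of the plaque programme and their adaptors 5 genes were higher. Trem2, the lipid-sensing receptor that drives the switch, read 2.32, 2.01, 2.88 and 2.36 in treated mice and 1.51, 1.29, 1.32 and 1.47 in wild type. It was 0.99 ± 0.16 higher (1.99-fold, limma adjusted p = 0.0145). Tyrobp, the adaptor through which Trem2 signals, read 1.90, 1.53, 2.28 and 1.73 against 0.97, 1.04, 0.88 and 1.09, a difference of 0.87 ± 0.14 (1.82-fold, adjusted p = 0.0167). Treated and wild-type arrays did not overlap for either gene, and both were lowest in APP-PS1_UA 2 and highest in APP-PS1_UA 3. Lilrb4a, an inhibitory receptor of myeloid cells, was 1.83 ± 0.29 higher (3.55-fold, adjusted p = 0.0124). Gpr84, a receptor for medium-chain fatty acids, was 1.07 ± 0.17 higher (adjusted p = 0.0129), and Slamf9, a SLAM-family surface protein, 1.06 ± 0.16 higher (adjusted p = 0.00876). Untreated transgenic arrays lay at 2.44 to 2.52 for Trem2, 2.09 to 2.13 for Tyrobp, -1.76 to -1.55 for Lilrb4a, -1.81 to -1.35 for Gpr84 and -1.55 to -1.45 for Slamf9. Within slide 1 these genes differed from wild type by 0.92 (Trem2), 0.90 (Tyrobp), 2.14 (Lilrb4a), 1.26 (Gpr84) and 1.26 (Slamf9). On slide 2 against WT_WASHOUT the differences were 1.07, 0.88, 1.90, 1.09 and 1.11 in the same order. Each of the 5 lost its call without APP-PS1_UA 1, without APP-PS1_UA 3 and without WT_CTR 2. Trem2, Tyrobp, Gpr84 and Slamf9 also lost it without WT_CTR 3, Lilrb4a without WT_CTR 4 and Tyrobp without WT_CTR 1. Without 1 array, the highest adjusted p was 0.0846 for Trem2, Gpr84 and Lilrb4a, 0.0994 for Tyrobp and 0.0723 for Slamf9.

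Among secreted ligands, 3 CC chemokines were higher. Ccl3, the macrophage inflammatory protein MIP-1α, read -1.60, -2.30, -1.26 and -2.50 in treated mice and -4.36, -5.12, -4.24 and -3.88 in wild type, a rise of 2.48 ± 0.36 (5.59-fold, limma adjusted p = 0.00533). Ccl4 (MIP-1β), its neighbour on the chromosome with 0 protein-coding genes between them in GRCm38.p6, read -2.49, -3.27, -2.22 and -3.07 against -5.35, -5.70, -4.97 and -4.84. It rose by 2.45 ± 0.27 (5.46-fold, adjusted p = 7.31e-05), and its other probe gave 2.32. These are close relatives, and how far their probes share transcripts was not tested. Ccl6, another CC chemokine, was 1.44 ± 0.23 higher (2.72-fold, adjusted p = 0.0129), with treated arrays at -0.10, -0.60, 0.36 and -0.54 and wild-type arrays between -1.98 and -1.19. Untreated transgenic arrays lay between -1.80 and -1.65 for Ccl3, -2.69 and -2.22 for Ccl4 and -0.13 and 0.15 for Ccl6. Within slide 1 the differences from wild type were 2.80, 2.72 and 1.56, and on slide 2 against WT_WASHOUT they were 3.21, 2.39 and 1.96, for Ccl3, Ccl4 and Ccl6. The call of Ccl6 was lost without APP-PS1_UA 1 and without APP-PS1_UA 3, as it was without WT_CTR 2 or 3 (highest adjusted p 0.0846). Ccl3 and Ccl4 kept theirs whichever of the 8 arrays was left out, with adjusted p up to 0.0433 and 0.00075.

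Bcl2a1c, of a family of anti-apoptotic BCL2 relatives, was 1.21 ± 0.20 higher (2.31-fold, limma adjusted p = 0.0167). The copies of this family are near-identical, so the probe's signal may come from more than 1 of them. Untreated transgenic arrays lay between -3.99 and -3.82, and the difference was 1.45 within slide 1 and 1.29 on slide 2 against WT_WASHOUT. Bcl2a1d, with a difference of 1.10, missed the threshold at an adjusted p of 0.0566. Of the 8 fits that leave out an array, 2 kept Bcl2a1c, those without APP-PS1_UA 2 and without APP-PS1_UA 4, and its adjusted p reached 0.104.

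Outside the microglial programme, C4b and Osmr were higher. C4b, complement component 4, which reactive astrocytes make, read 3.4, 3.1, 3.67 and 3.47 in treated mice and 2.56, 2.51, 2.40 and 2.47 in wild type. The rise was 0.92 ± 0.16 (1.90-fold, limma adjusted p = 0.0365), and its other probe gave 0.75. It was kept in 1 of the 8 fits with an array left out, that without APP-PS1_UA 2, and its adjusted p reached 0.212 in the others. Osmr, the oncostatin M receptor subunit, rose by 0.82 ± 0.13 (1.77-fold, adjusted p = 0.0129), with treated arrays between -0.63 and -0.13 and wild-type arrays between -1.47 and -0.79. Its other, dimmer probe gave 1.16, and 0.34 for untreated transgenic arrays. Osmr was kept in 3 of the 8 such fits, with an adjusted p up to 0.0846. APP-PS1_UA 1 and 3 and WT_CTR 1, 3 and 4 were the arrays whose absence ended its call. Untreated transgenic arrays lay between 3.39 and 3.93 for C4b and between -0.41 and -0.08 for Osmr. The differences from wild type were 0.91 and 0.88 within slide 1, and 0.83 and 0.71 on slide 2 against WT_WASHOUT.

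Gfap, the intermediate filament of astrocytes, did not pass the test against wild type. It read 3.1, 3, 2.86 and 2.93 in treated mice, 2.58, 2.37, 2.32 and 2.64 in wild type and 3.35, 3.44 and 3.52 in untreated APP/PS1 mice. None of the 3 groups overlapped, with the treated arrays in between. The difference from wild type was 0.49 ± 0.18 (limma adjusted p = 0.791), against 0.95 for untreated transgenic arrays (adjusted p = 0.053). Treated minus untreated was -0.46, with a 95% interval of -0.87 to -0.05, an unadjusted p of 0.0284 and an adjusted p of 0.670. Its other probe gave 0.21 against wild type. The difference was 0.62 within slide 1 and 0.75 on slide 2 against WT_WASHOUT.

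The 2 remaining named genes are not markers of microglia or astrocytes. Prnp, the prion protein gene, read 6.84, 6.67, 6.99 and 6.86 in treated mice and 5.27, 5.61, 5.25 and 5.39 in wild type, a rise of 1.46 ± 0.09 (2.76-fold, limma adjusted p = 4.53e-09). Untreated transgenic mice, at 6.91, 6.84 and 6.84, lay within the treated span. The rise was seen by 1 of its 2 probes, and the other differed by 0.06. Whether the probe that rose also reads RNA of the transgenes was not determined here, so the rise is not assigned to the mouse's own Prnp gene. Wdfy1, which encodes an endosomal FYVE-domain protein, was the sole named gene to fall. It read 0.27, 0.33, 0.17 and 0.42 against 1.68, 2.28, 2.20 and 2.22, and fell by 1.80 on the log2 scale (SE 0.12, a factor of 3.48, adjusted p = 2.82e-08). Of its other probes, one gave -1.22 and the other -0.15. Both genes kept their calls whichever array was left out, and lost them within slide 1 (adjusted p 0.182 for Prnp and 0.190 for Wdfy1). There the differences were 1.47 for Prnp and -1.83 for Wdfy1, close to 1.31 and -1.84 on slide 2 against WT_WASHOUT.

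No measured gene beside Prnp or Wdfy1 passed the test. Of the 5 nearest measured protein-coding genes on each side of Prnp in GRCm38.p6, 0 of 10 passed the test, with differences from -0.45 (Prnd, the prion-like doppel gene) to 0.38 (Erv3) and a smallest adjusted p of 0.791. Around Wdfy1 0 of 10 passed, from -0.70 (Cul3, a ubiquitin ligase scaffold) to 0.25 (Ap1s3, a subunit of a vesicle adaptor), also with a smallest adjusted p of 0.791. These neighbours were chosen after the values of both genes had been seen.

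**Figure D2:**
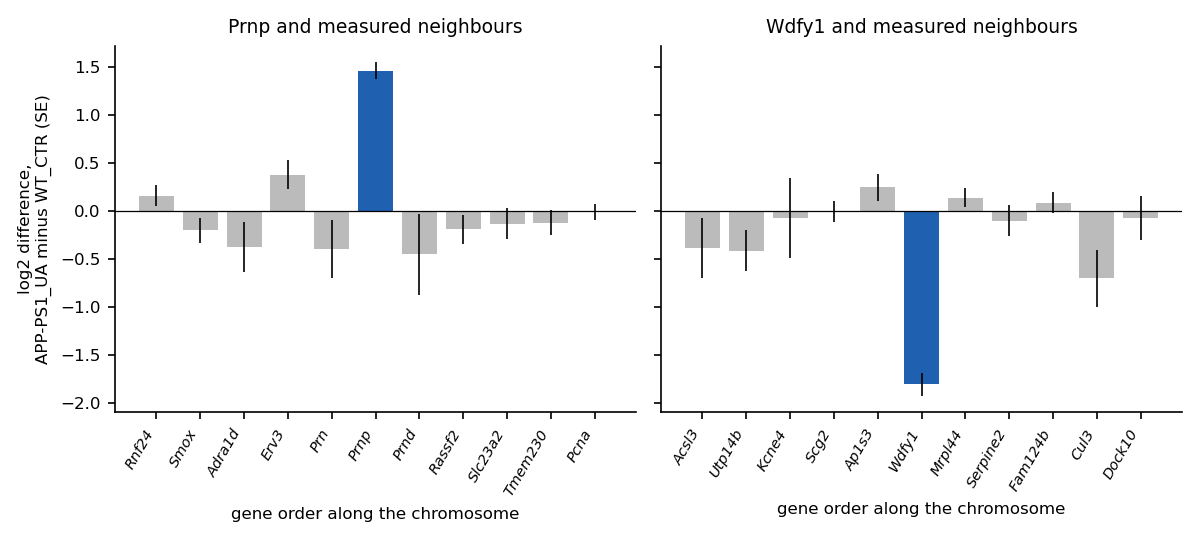
Log2 difference between APP-PS1_UA and WT_CTR, with the SE of the fit, for Prnp (left) and Wdfy1 (right) and the 5 nearest measured protein-coding genes on each side, in chromosomal order on the horizontal axis. Blue bars passed an adjusted p of 0.05 and grey bars did not, and only the central bars, at 1.46 and -1.80, are blue.

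The second feature to fall was an unnamed probe, A_30_P01029515, which the scanner files place at chr9:40031056-40031687 of mm9. It read -9.01, -8.94, -8.70 and -8.75 in treated mice and -7.43, -7.29, -6.89 and -7.19 in wild type. The probe was well above background on 1 wild-type array and on 0 treated arrays, so these values lie near the detection limit and no fold is given (adjusted p = 0.0365). It was above background on 0 of the 3 untreated transgenic arrays, so it passed the filter of 3 arrays only through arrays of the washout groups. The call was lost whichever of the 8 arrays was left out.

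The higher features varied together among the treated mice. Besides Prnp, APP-PS1_UA 3 had the highest treated level for 14 of 14, APP-PS1_UA 2 the lowest for 11 and APP-PS1_UA 4 the lowest for 3. Prnp was likewise highest in APP-PS1_UA 3, at 6.99, and lowest in APP-PS1_UA 2, at 6.67. This order held on a single slide, since these 3 arrays shared slide 2. The list of 18 homeostatic microglial genes stood highest in APP-PS1_UA 3, with medians over its genes of 0.20, 0.19, 0.51 and 0.20 above the wild-type mean in APP-PS1_UA 1 to 4. That array was also highest for lists of other kinds, among them immediate early genes at 0.36 and astrocyte identity genes at 0.18. Complement and interferon-stimulated genes stood highest in APP-PS1_UA 1, at 0.41 and 0.43. The share of all features highest in APP-PS1_UA 3 was not determined here.

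Set beside untreated transgenic mice, all 15 higher features had a lower mean in treated mice, with differences from -0.51 (Lilrb4a) to -0.02 (Prnp) and a median of -0.24 on the log2 scale. None of these differences passed the test, and the median difference over all features was -0.02. The 15 features varied together, so they are not 15 separate observations. All untreated arrays lay on slide 1 with APP-PS1_UA 1, whereas APP-PS1_UA 2 to 4 lay on slide 2. Treatment and slide are thus largely aligned. For Cst7, APP-PS1_UA 3 (0.84) stood above all untreated arrays (up to 0.28), and APP-PS1_UA 2 and 4 stood below them. Of 35259 features, 0 were called between treated and untreated transgenic arrays by limma, 2588 had an unadjusted p under 0.05 (7.34%), and the smallest adjusted p was 0.153. For Cst7 the treated-minus-untreated difference was -0.19, with a 95% interval of -0.96 to 0.57, and for Trem2 it was -0.10 (-0.46 to 0.27). Intervals of 14 of the 17 called features held 0. The exceptions were Slamf9 at -0.46 (-0.83 to -0.10) and Gpr84 at -0.46 (-0.85 to -0.07), both with an adjusted p of 0.654, and A_30_P01029515, which was above background in neither transgenic group and is given no difference. Choroid plexus genes also differed between these groups, with a median of -2.35 for treated minus untreated arrays, and their part in the differences between them was not tested. With slide as a fixed block, which leaves APP-PS1_UA 1 as the treated array on the slide of the untreated ones, 11 features were called, with array weights 7, without APP-PS1_CTR 1 it was 1 and without APP-PS1_CTR 2 it was 3.

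Over the 55 features called in untreated transgenic mice, the median difference from wild type was 1.10 without urolithin A and 0.76 with it. Of the 54 that were higher, 53 were above the wild-type mean in treated mice as well. The first value was chosen by its own test, and both rest on the same wild-type arrays. The features with the largest drop from untreated to treated among genes with a symbol were Gm31740 at -0.65, Glycam1, an endothelial mucin-like ligand, at -0.64, Cd72, an inhibitory receptor of myeloid and B cells, at -0.52, Lilrb4a at -0.51 and Hcar2, a receptor for β-hydroxybutyrate and niacin, at -0.47. Cd72 read -4.40, -4.66, -3.97 and -5 in treated mice, between -5.71 and -5.32 in wild type and between -4.20 and -3.78 in untreated transgenic mice. Its difference from wild type was 0.97 with the compound (adjusted p = 0.165) and 1.49 without it (adjusted p = 0.00466). Hcar2 was not well above background on any wild-type array and was at least 1.77-fold higher in treated mice, a bound set by the dimmest detectable signal (measured difference 2.09, adjusted p = 0.0643). At the other end, by the probe used for each gene, Prnp at -0.02, Wdfy4 at -0.04, Plek at -0.05, Igf1 at -0.05 and Osmr at -0.05 differed least between the 2 transgenic groups. With and without the compound, other probes differed from wild type by 0.06 and -0.10 for Prnp, 0.47 and 0.08 for Plek and 1.16 and 0.34 for Osmr.

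Several genes, named after their values were seen, lay just outside the threshold. Igf1, the growth factor made by plaque-associated microglia, was at 0.72 and Mpeg1, the macrophage pore-forming protein perforin 2, at 0.90, both with a limma adjusted p of 0.0562. Tbxas1, thromboxane synthase, was at 0.60 (0.0566), Plek at 0.69 (0.0668) and Cd68, a lysosomal glycoprotein of macrophages, at 0.76 (0.0813). C4b and A_30_P01029515, both at 0.0365, were the called features closest to it.

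**Figure D3:**
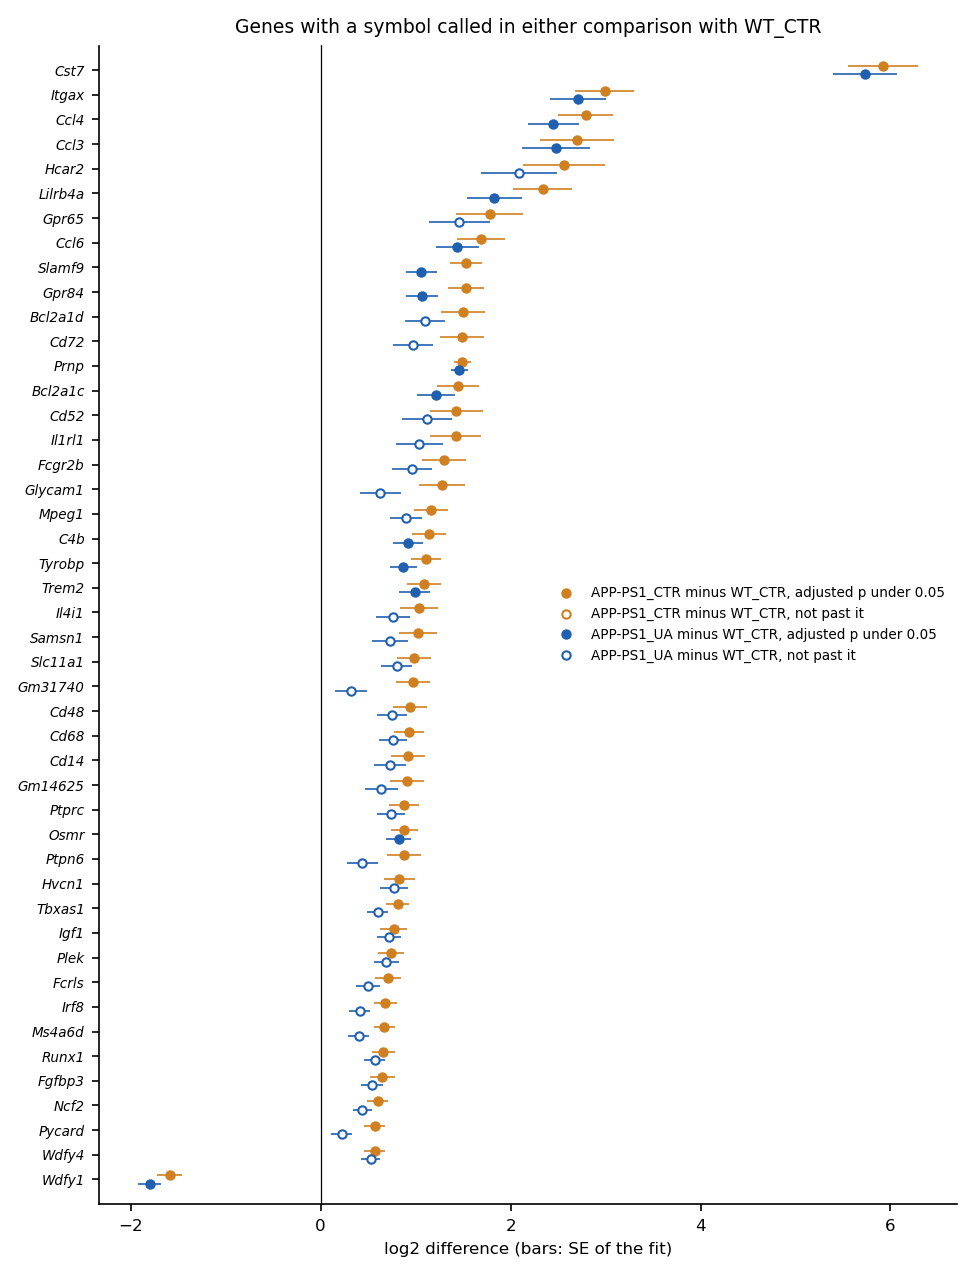
Log2 difference from WT_CTR, with the SE of the fit, for each gene with a symbol that was called with or without urolithin A, in blue for APP-PS1_UA and orange for APP-PS1_CTR. Filled points passed an adjusted p of 0.05 and open points did not. The blue points lie mostly nearer to 0 than the orange ones, from 5.73 for Cst7 to -1.80 for Wdfy1. Every gene shown passed in APP-PS1_CTR, so the orange values were chosen by their own test. The distance between the colours is therefore no measure of an effect of the compound.

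Gene lists were described by their counts and medians. They were chosen with earlier results of these data known, so a share called on a list is a description and no test. Of 39 measured genes on the list of microglia at amyloid plaques, 10 were higher in treated mice, 0 lower and 29 did not pass the test, against 0.0425% of all features called higher. Their median difference was 0.61, against -0.03 for all features, and 0.74 without the compound. Array by array, the median over the list stood 0.71, 0.44, 1.07 and 0.34 above the wild-type mean in APP-PS1_UA 1 to 4. The wild-type arrays lay between -0.18 and 0.14, below all 4, and untreated transgenic arrays between 0.68 and 0.80. Members that did not pass included Apoe, the main lipid carrier of the brain, at -0.05. The list's median lay between 0.53 and 0.72 under the other settings on this scale, and between 0.53 and 0.74 with 1 of the 8 arrays left out.

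Bulk tissue cannot tell more microglia from more RNA per microglial cell. None of the 18 homeostatic microglial genes passed, and their median was 0.23, with 14 of 18 above 0. Their smallest adjusted p was 0.343, for Fcrls, at 0.50. The summed linear level of the 18 ran from 110 to 131 on the treated arrays and from 99.1 to 109 on the wild-type arrays, without overlap. All 18 were above background on all 8 arrays. Such a sum is weighted to its brightest member, Sparc, with a mean of 5.74 in treated mice and 5.52 in wild type. Sparc differed from wild type by 0.22 with the compound and 0.02 without it. The summed level of the plaque list overlapped, at 344 to 387 in treated mice and 284 to 373 in wild type. The part of the 18 homeostatic genes in the plaque list's difference was not tested. Of the border macrophage markers 0 of 10 passed, 5 were above 0, the median was -0.03 and the summed level ran from 0.864 to 1.26 in treated mice and from 0.905 to 1.68 in wild type. Blood cell markers had a median of 0.04 over 13 measured genes, with Ptprc, the leukocyte antigen CD45 that microglia also carry, at 0.74 (adjusted p = 0.0904).

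Other immune lists held 0 or 1 called gene each. Of 18 complement genes 1 passed, C4b. The list's median was 0.00 with urolithin A and 0.42 without it, but array by array it stood at 0.41, 0.17, 0.29 and -0.13 in APP-PS1_UA 1 to 4, and without APP-PS1_UA 4 the median was 0.31. Without WT_CTR 1 it was 0.19, and it was -0.07 without WT_CTR 4 or without APP-PS1_UA 1. Fc receptors, through which microglia take up antibody-bound material, had a median of 0.45 over 7 genes with 0 called, and 0.64 without the compound. Among them Fcgr2b, the inhibitory receptor, was at 0.96 (adjusted p = 0.171) and Fcgr3 at 0.51 (adjusted p = 0.309), both without overlap between groups. The medians were 0.04 for MHC and antigen presentation, 0.27 for interferon-stimulated genes and 0.21 for cytokines, inflammasome and toll-like receptors, with 0 called in each. Without the compound they were 0.38, 0.41 and 0.11. For MHC genes, leaving out WT_CTR 2 gave a median of -0.06, leaving out APP-PS1_UA 4 gave 0.25, and slide and array row as fixed blocks gave 0.34. Of 21 reactive astrocyte genes 1 passed, Osmr, and the median was 0.16, against 0.38 without the compound. Among 34 lysosomal genes 0 passed, 24 were above 0 and the median was 0.10, with 0.15 in untreated mice, 0.16 without WT_CTR 1 and 0.06 without WT_CTR 3. Laptm5 at 0.59 and Ctsa, a lysosomal carboxypeptidase, at 0.46 had the smallest p-values of that list (adjusted p 0.235 and 0.300).

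Mitochondrial and autophagy genes, the processes urolithin A is best known for, held no called member. For the 37 autophagy and mitophagy genes the median was 0.03, and -0.01 to 0.10 under other scalings, with 21 above 0. Pink1, the kinase that marks damaged mitochondria, read 4.03, 4.30, 4.36 and 4.28 in treated mice and 4.17, 4.29, 4.21 and 4.23 in wild type, a difference of 0.02 (limma adjusted p = 0.983) with overlapping groups. Bnip3, a mitophagy receptor, read 3.98, 4.04, 4.04 and 3.98 against 3.83, 3.96, 3.77 and 3.89. Its groups did not overlap, but the difference was 0.15 (adjusted p = 0.791). Untreated transgenic arrays read 4.30 to 4.51 for Pink1 and 3.76 to 3.90 for Bnip3. Of 31 oxidative phosphorylation subunits, 30 were above 0, as were 43.9% of all features. Their median was 0.13, and 0.10 to 0.13 on each treated array, within the wild-type range of -0.05 to 0.12 or just above it. On slide 2 against WT_WASHOUT that median was 0.00, and the untreated transgenic arrays lay at 0.03 to 0.13. The AHR and NRF2 targets had a median of 0.11 over 21 genes and mitochondrial biogenesis and dynamics one of 0.06 over 23, which ran from 0.02 without APP-PS1_UA 2 to 0.13 without WT_CTR 2.

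No gene of amyloid precursor handling passed the test. App read 5.88, 5.72, 5.91 and 5.70 in treated mice and 5.72, 5.35, 5.59 and 5.64 in wild type, a difference of 0.22 (limma adjusted p = 0.791). Whether its probe also reads the transgene's RNA was not determined here. Ide, insulin-degrading enzyme, which cleaves amyloid-β, was at 0.69 (adjusted p = 0.216) without overlap between groups. Untreated transgenic arrays read 5.77 to 5.88 for App and 1.13 to 1.31 for Ide. None of 31 glutamate receptor and scaffold genes, 24 genes of GABAergic interneurons and GABA-A receptors or 20 immediate early genes passed, with medians of -0.06, 0.01 and -0.11. The first of these medians was 0.02 and the second -0.03 under another scaling.

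Choroid plexus genes differed widely between arrays of the same group. The median over 20 genes stood at 3.02, 0.00, -2.03 and -2.82 relative to the wild-type mean in APP-PS1_UA 1 to 4, and the wild-type arrays themselves spanned -2.30 to 2.74. All 3 untreated transgenic arrays lay above the wild-type mean, at 0.49 to 2.37. Ttr, the transthyretin that this epithelium secretes, read 6.87, 5.14, 2.22 and 0.27 in treated mice and 6.8, 1.2, 5.81 and 3.16 in wild type, and 6.33 to 6.59 in untreated transgenic mice. Their summed linear level ran from 16.1 to 338 in treated mice and from 20.8 to 307 in wild type, and 0 of 20 passed. The median difference from wild type was -0.54 for treated and 1.80 for untreated transgenic arrays, and the first ran from -1.62 without APP-PS1_UA 1 to 0.41 without WT_CTR 1. The array with the highest plaque-microglia median, APP-PS1_UA 3, had a low choroid plexus level, and the relation between them was not tested. Myelin and oligodendrocyte genes had a median of -0.16 and meningeal genes one of -0.35, with 0 called in either. With 1 array left out the first ran from -0.23 without APP-PS1_UA 2 to -0.03 without APP-PS1_UA 4, and the second from -0.57 without WT_CTR 2 to -0.08 without APP-PS1_UA 4.

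**Figure D4:**
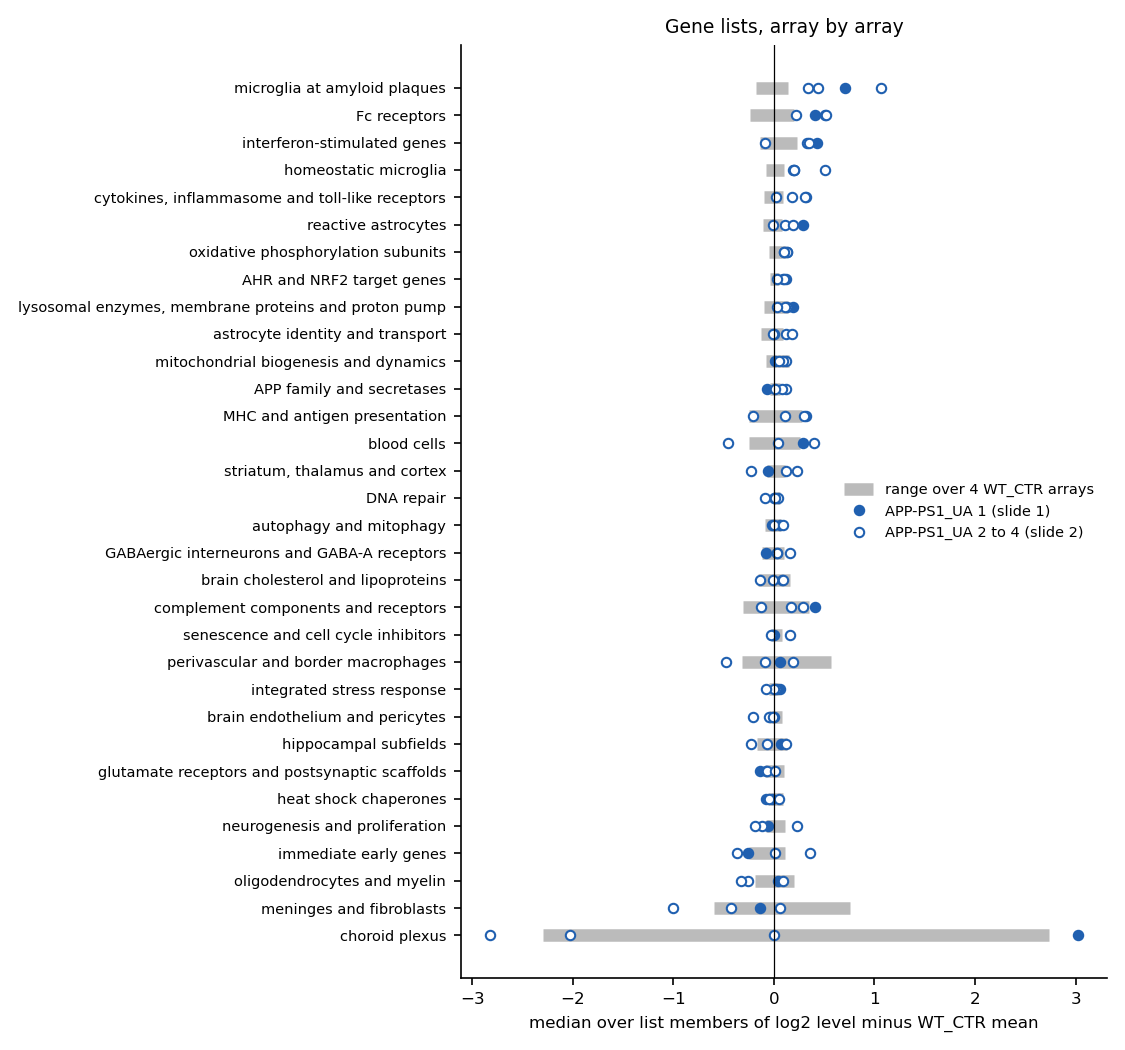
Median over the measured genes of each list of the log2 level minus the WT_CTR mean, on the horizontal axis, for each APP-PS1_UA array (filled on slide 1, open on slide 2) and as a grey bar for the range over the 4 WT_CTR arrays. Microglia at amyloid plaques lie outside the bar on all 4 treated arrays, at 0.34 to 1.07. So do homeostatic microglia, at 0.19 to 0.51, and Fc receptors, at 0.22 to 0.52. Choroid plexus genes spread from -2.82 to 3.02.

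The same transgene difference was also measured after washout on arrays shared with neither group, APP-PS1_WASHOUT against WT_WASHOUT. There 27.6% of all features were called, 20% as higher and 7.67% as lower, and genotype and slide cannot be told apart because the 2 washout groups lay on different slides. Of the 17 features called here, 14 were called in the same direction, which is 82.4% of the 17 and 0.144% of the 9741 called after washout. Cst7 differed by 5.88 there, Prnp by 1.40, Trem2 by 1.2 and Wdfy1 by -1.81. Osmr, at 0.35 (limma adjusted p = 0.0575), and Bcl2a1c, at 0.29 (adjusted p = 0.334), did not pass, and A_30_P01029515 was higher there, by 1.2.

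With slide as a fixed block, a fit in which the comparison with wild type rests on APP-PS1_UA 1, 18 features were called, 9 higher and 9 lower, and 12 of them were not among the 17. In that fit 6 of the 17 features kept their calls: Cst7, Prnp, Wdfy1, Itgax, Ccl4 and A_51_P246653. Against WT_WASHOUT on slide 2, and with slide and array row as fixed blocks, Cst7, Prnp and Wdfy1 kept theirs. In those fits the other called features had adjusted p up to 1. The direction of the difference was the same for 17 of 17 within slide 1 and on slide 2 against WT_WASHOUT. Within slide 1 this was fixed beforehand, because treated and wild-type arrays did not overlap for any of the 17. On slide 2 the difference reused APP-PS1_UA 2 to 4, on which the calls also rest. Neither count is thus separate support for the calls.

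**Figure D5:**
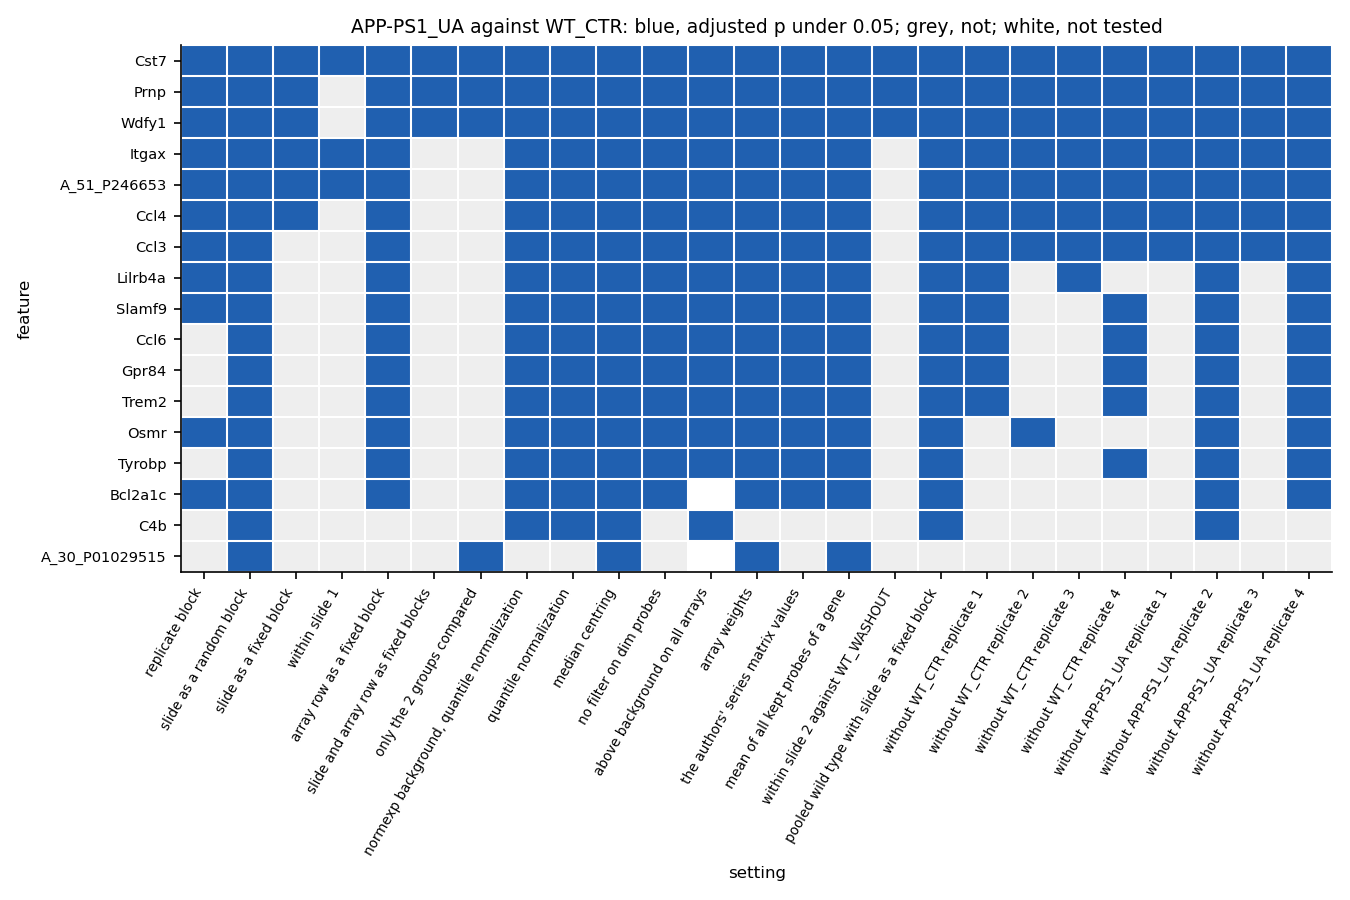
Calls of the 17 features (rows) under each alternative setting and with each array left out (columns), blue where the adjusted p was under 0.05, grey where it was not and white where the feature was not tested. Cst7 is blue in all columns, Prnp and Wdfy1 in all but 1, and A_30_P01029515 is grey in every column that leaves out an array.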

How the data were processed

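Total RNA was labelled with Cy3 and hybridised to 24 one-colour Agilent arrays of 62976 spots. The authors deposited scanner output whose processed signal is an intensity after background subtraction, made per the file headers with Feature Extraction 12.0.3.1. Their deposited series matrix holds a score: each array's log signal centred and divided by its spread, which recomputed values matched within 0.005. Its column medians lay between -0.17 and -0.06. The array grid's build is mm9, per the file headers.

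Control spots (3671) and outlier flags were removed, log2 intensity minus each array's 75th percentile was taken, and probes well above background on at least 3 arrays were kept, 43988 of 56605. Of the 56605 probes 32994 carried a symbol and 23611 none. A gene was represented by the kept probe with the highest mean, giving 35259 features, 18566 with a symbol. All 6 groups were fitted together (limma 3.58.1, R 4.3.3) after the procedure was tested on simulated data. Calls use a Benjamini-Hochberg adjusted p under 0.05.

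The 32 gene lists and the genes on them were chosen with earlier results of these data known. Named genes were the 12 largest rises and 8 largest falls among calls with non-overlapping groups, up to 4 called members of each list or else its 2 smallest p-values, 17 set genes, and the 5 largest differences in each direction from untreated transgenic arrays among features called there. No named gene was called against wild type in treated arrays alone. Alternatives covered background, scaling, filter, probe choice, weights, slide, row, replicate block and left-out arrays. The normexp alternative used the median signal in place of the mean signal. The number of arrays limits the precision. A few items are not reported here.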

Additional observations from a re-analysis of the deposited data

Results flagged for a closer look

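Dixon's test was run on 176 groups of 4 arrays, those of the genes named, and marked 5, where chance marks about 1 group in 20. Wdfy1 on WT_CTR 1, at 1.68, stood below the other wild-type arrays, which read 2.20 to 2.28, and above all treated arrays. On APP-PS1_UA 3, Fcrls at -0.53 and Gpr34 at -0.06, a pair of homeostatic microglial receptors, stood above the other treated arrays, and Amigo2, a marker of hippocampal field CA2, at -2.27 stood below them. On APP-PS1_UA 4, the cell cycle inhibitor Cdkn1b at 2.05 stood above the other treated arrays. The unnamed probe A_30_P01029515 differed from wild type in opposite directions in treated mice at the end of treatment and after washout, by -3.69 between the stages (limma interaction, adjusted p = 1.44e-06). The slides differ between the stages, and the probe was well above background on 1 of the 8 arrays at the end of treatment, so the size of this difference rests on values near or below the detection limit and is no measured fold.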

How the results depend on the processing

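The count of 17 features against wild type became 30 with slide as a random block, 28 with median centring and 80 with both wild-type groups pooled and slide as a fixed block. It became 6 within slide 1, 6 within slide 2 against WT_WASHOUT, 5 with slide and array row as fixed blocks and 4 with only the 2 groups compared. With slide as a fixed block it was 18, 9 higher and 9 lower. The replicate block gave 11. Deviations of same-numbered arrays correlated at 0.32, 0.15, 0.05 and 0.19, under the threshold for replicate 3, and not every array correlated best with its own number, so the numbers do not pair the samples. With 1 array left out the count ran from 7 to 9 where it left the range of 1.5 times, and from 7 to 19 over all 8. For untreated transgenic against wild-type arrays the count of 55 became 150 with array weights, 33 with the replicate block, 31 with slide as a fixed block, 27 within slide 1, 27 with only the 2 groups compared, 29 with no filter on dim probes, 8 with array row as a fixed block, 4 with slide and row, and 22 to 34 with 1 array left out. Between treated and untreated transgenic arrays the count of 0 became 11 with slide as a fixed block, 9 with slide and row, 7 with array weights, 1 without APP-PS1_CTR 1 and 3 without APP-PS1_CTR 2, and stayed at 0 without APP-PS1_CTR 3. After washout the count of 9741 became 6420 among features above background on all arrays. The cause was not tested in these cases. Of the 32 list medians 19 were above 0, and 28 with median centring. Probes near background, such as A_30_P01029515, limit what can be said.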
